A study of Mus musculus with 8 samples.

Results

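The RAS-MAPK feedback regulators described here are 10 genes chosen by name, the phosphatases Dusp4, Dusp5 and Dusp6, the Sprouty genes Spry1, Spry2 and Spry4, the Spred genes Spred1 and Spred2, and Etv4 and Etv5. Spots were assigned by the symbol on the array or in the platform annotation, which gave 16 probes for 9 genes out of 15097 measured. Dusp5 was matched to no probe and was not analysed here. CT26-FL3 is a line obtained from CT26 by selection in mice over repeated rounds of growth in the liver; lesions were dissociated with enzymes and the cells kept in culture for a short time to lose stroma. CT26 is its parent, a male BALB/c colon carcinoma line with poor liver metastasis. Both lines were grown as untreated cultures in the same medium. Total RNA of 4 samples per line was measured on 1-colour Agilent arrays. No label ties the samples to separate cultures, although the design text calls them independent, and the error terms here may therefore be technical.

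The RAS-MAPK pathway carries signals from receptor tyrosine kinases through RAS, RAF and MEK to the kinase ERK, which phosphorylates transcription factors and so changes gene expression. Among the genes that ERK activity induces are its own brakes: dual-specificity phosphatases, which remove phosphate from ERK, and the Sprouty and Spred proteins, which act upstream at receptors, RAS and RAF. The ETS transcription factors Etv4 and Etv5 are induced alongside them, and the whole group is often read as a record of pathway output.

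Scaled intensity below is the background-subtracted spot intensity of an array in arbitrary units, brought to a common 75th percentile of 888 over the 8 arrays. All 16 probes were above the detection limit on all 8 arrays; that limit lay between 14.02 and 25.5 on this scale. A probe passed the test when limma's p-value, adjusted over 23068 probes by the Benjamini-Hochberg method, was under 0.05. By that rule 48.3% of all probes passed, 22.9% upward and 25.4% downward in CT26-FL3, so a call was common in this pair of lines. Arrays of 1 line correlated at r from 0.996 to 0.998 across probes, and arrays of different lines at 0.982 to 0.984; probes are not independent replicates. Of the listed epithelial markers of a carcinoma, 3 of 8 were measured and all 3 were higher in CT26-FL3 (summed scaled intensity 1465 to 1613, against 435 to 473 in CT26), while Epcam, Cdh1, Krt19, Cldn7 and Vil1 were not above the limit on enough arrays. Markers of fibroblasts gave summed values of 214036 to 231907 in CT26-FL3 and 202608 to 241636 in CT26, with 1 of 6 measured genes higher and 4 lower. Most of each sum was Col1a2, with means of 182510 in CT26-FL3 and 191393 in CT26, which did not pass. The higher gene was Dcn, with a log2 difference of 3.32, and the 4 lower genes ran from -0.19 to -0.76. Markers of macrophages and other leukocytes gave 883 to 959 in CT26-FL3 and 614 to 750 in CT26 (2 of 4 higher), and the defining genes Ptprc and Adgre1 were left out by the same filter. Endothelial markers gave 83.0 to 115 in CT26-FL3 and 81.9 to 84.9 in CT26 (1 of 2 higher), without Pecam1 and Cdh5, and the 1 measured hepatocyte marker, Apoa1, gave 75.3 to 81.9 in CT26-FL3 and 57.1 to 70.0 in CT26, without Alb. The part of other cells in the results below was not tested, and in bulk RNA fewer cells with a transcript and less of it per cell cannot be told apart.

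Promoters are shown for Dusp6 and Spry2, the members with the largest rises, and for Spry1, which fell, because the transcripts of these genes differ in direction. Each is the run of 250 bases before the annotated start, from RefSeq on GRCm38.p6, read 5′ to 3′ on the gene's strand: chr10:99262981-99263230 (plus strand) for Dusp6, chr14:105896820-105897069 (minus strand) for Spry2 and chr3:37639697-37639946 (plus strand) for Spry1. Capitals mark GGAA, the core that ETS factors recognise, on either strand.
Dusp6: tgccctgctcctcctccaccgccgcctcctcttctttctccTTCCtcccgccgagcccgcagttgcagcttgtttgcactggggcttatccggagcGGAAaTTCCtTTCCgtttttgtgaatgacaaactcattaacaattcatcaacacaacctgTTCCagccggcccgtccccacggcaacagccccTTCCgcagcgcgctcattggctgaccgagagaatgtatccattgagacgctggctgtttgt
Spry2: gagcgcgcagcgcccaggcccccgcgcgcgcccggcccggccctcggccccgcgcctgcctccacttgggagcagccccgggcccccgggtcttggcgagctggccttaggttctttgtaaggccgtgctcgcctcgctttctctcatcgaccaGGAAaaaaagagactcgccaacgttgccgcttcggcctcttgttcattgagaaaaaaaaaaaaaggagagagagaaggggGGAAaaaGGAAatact
Spry1: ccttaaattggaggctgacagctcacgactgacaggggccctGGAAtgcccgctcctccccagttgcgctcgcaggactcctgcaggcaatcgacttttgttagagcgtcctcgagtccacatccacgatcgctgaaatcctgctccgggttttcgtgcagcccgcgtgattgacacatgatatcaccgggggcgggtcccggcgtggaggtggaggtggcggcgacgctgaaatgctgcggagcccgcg
The Dusp6 window held 6 such cores, of which 3 lay between 154 and 141 bases before the start. The Spry2 window held 3 and the Spry1 window 1, and the median over 32851 promoter windows was 3. A count of at least 6 occurred in 8.69% of all windows and any match in 93.4%, so the short core is common. The longer ETS form CCGGAA, which contains the core, was found in 12.03% of all windows, the AP-1 motif TGACTCA in 4.46% and the CRE motif TGACGTCA in 1.55%, on either strand. These 3 motifs were found in 0 of the 8 windows of the 7 listed genes in the promoter table, Dusp5 included. The CArG box, found in 1.47% of all windows, occurred in the Dusp5 window alone. These are matches of letters and show neither binding nor its absence.

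The feedback regulators moved modestly and not as a block. In CT26-FL3, 7 of the 16 probes were higher, 2 were lower and the remaining 7 missed the threshold, against 48.3% of all probes called, and the members' share of 9 in 16 lies near that background. The median log2 difference of the 16 probes was 0.16, against -0.02 over all probes, and their median size was 0.28 against 0.21. No member probe reached a 2-fold change, while 4.8% of all probes passed the threshold with at least that change (2.61% higher and 2.2% lower). On the brightest probe of each gene Dusp6, Spry2, Spry4 and Etv5 were higher, Spry1 was lower, and Dusp4, Spred1, Spred2 and Etv4 did not pass. With the mean of each gene's probes in place of the brightest, Dusp4 passed as higher (0.14, adjusted p = 0.0235) and Spred2 as lower (-0.29, adjusted p = 0.00642). Over all genes 48.8% passed on the brightest probe, 23.8% higher and 25% lower, and 7556 of 15097 passed with the mean of probes.

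**Figure D1:**
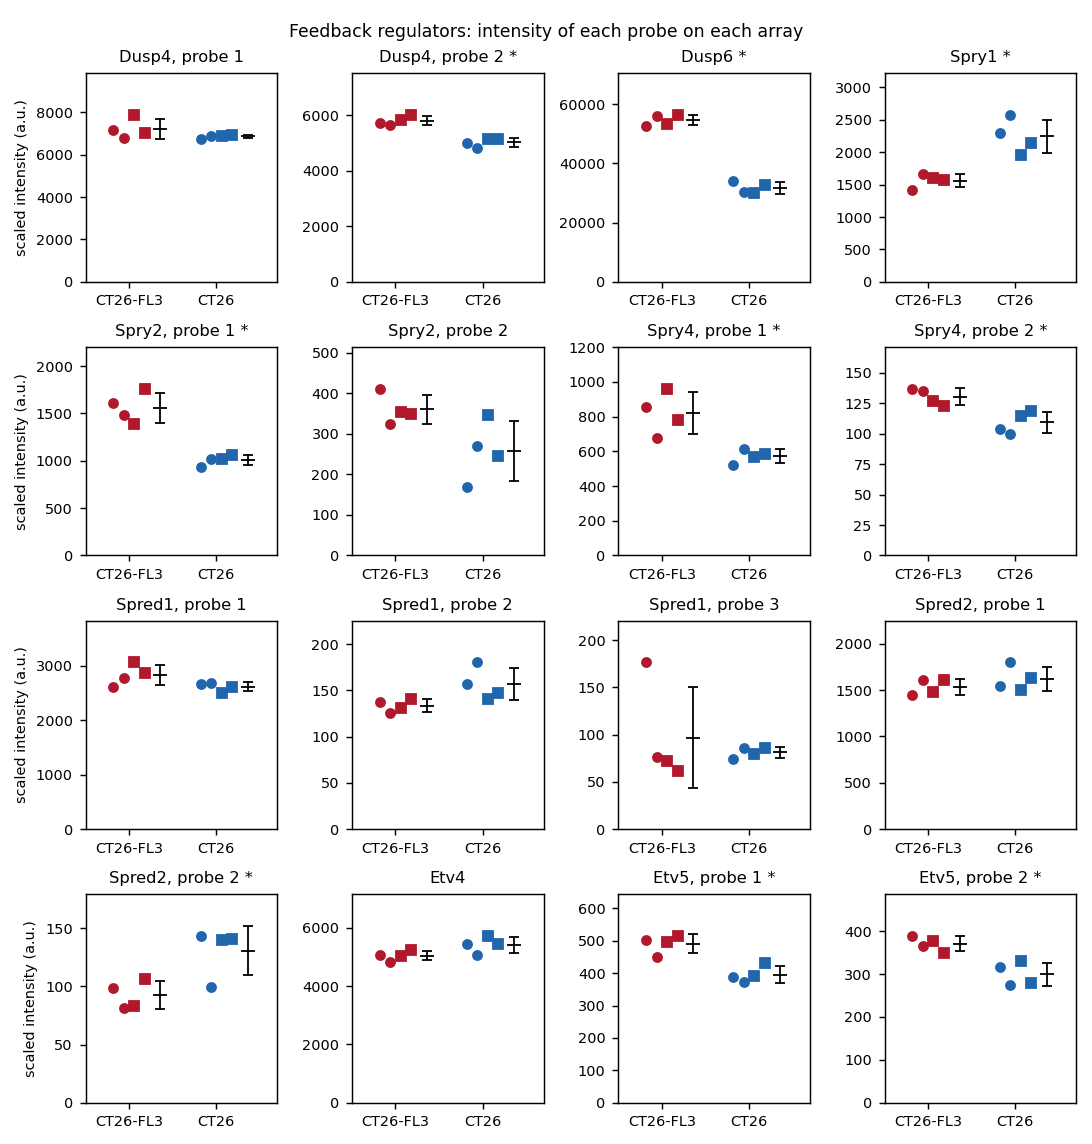
Scaled intensity (arbitrary units, linear axes from 0) of the 16 probes on each array, with CT26-FL3 in red on the left and CT26 in blue on the right of each panel. Circles are replicates 1 and 2, squares replicates 3 and 4, black bars the mean and SD of 4 arrays, and an asterisk a probe past the threshold; probe 1 is the brightest of a gene. The lines are clear of each other for Dusp6 and Spry1, and 1 CT26-FL3 array stands at 177 on Spred1 probe 3.

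Dusp6, the phosphatase that acts on ERK in the cytoplasm, was measured by a single probe and had the largest difference of the group. Its scaled intensity was 52774, 55867, 53423 and 56380 in CT26-FL3 replicates 1 to 4, against 34063, 30197, 29887 and 32611 in CT26 replicates 1 to 4. The lowest CT26-FL3 array was far above the highest CT26 array. The mean was 54611 ± 1779 in CT26-FL3 and 31690 ± 1997 in CT26 (SD, n = 4 each). Dusp6 rose 1.73-fold (log2 0.79, SE 0.06, n = 4 per line, limma adjusted p = 9.32e-06). Replicates 1 and 2 alone gave a difference of 0.76, and replicates 3 and 4 alone one of 0.81.

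Dusp4, a nuclear phosphatase of ERK and related kinases, was measured by 2 probes that gave different calls. Probe 2, annotated with a RefSeq mRNA, read 5716, 5641, 5840 and 6011 in CT26-FL3 and 5007, 4805, 5130 and 5148 in CT26. The lines did not overlap, and the rise was 1.16-fold (log2 0.21, SE 0.05, limma adjusted p = 0.00533). This call was lost with the replicate block by title numbers (adjusted p = 0.0795). It was also lost within replicates 1 and 2 alone (adjusted p = 0.122) and within replicates 3 and 4 alone (adjusted p = 0.104). Probe 1, annotated with another sequence, read 7182, 6798, 7883 and 7040 in CT26-FL3 and 6765, 6904, 6909 and 6943 in CT26. Here the lines overlapped, with only CT26-FL3 replicate 3 well apart, and the difference of 0.07 did not pass (95% interval -0.06 to 0.19, limma adjusted p = 0.333).

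The Sprouty genes encode inhibitors that are induced by growth factor signals and hold back RAS activation and RAF, and their members went in different directions. Spry2 probe 1 read 1605, 1479, 1393 and 1762 in CT26-FL3, against 933, 1014, 1020 and 1056 in CT26. Every CT26-FL3 array was above every CT26 array. Spry2 rose 1.55-fold on this probe (log2 0.63, SE 0.08, limma adjusted p = 0.000242). The dimmer probe 2, annotated with a RefSeq mRNA, read 412, 325, 355 and 349 in CT26-FL3 and 170, 271, 347 and 245 in CT26. CT26 replicate 1 was low and replicate 3 reached into the range of CT26-FL3, so the lines overlapped. The difference on probe 2 was of similar size, 0.52, with a larger error (SE 0.19), and missed the threshold (limma adjusted p = 0.0519). It passed in 1 of the 8 fits that left out an array. Over all 20 alternative fits of this probe 4 passed, with limma adjusted p from 0.0114 to 0.328. Without CT26 replicate 3 the difference on probe 2 was 0.68 (adjusted p = 0.0114), and without CT26 replicate 1 it was 0.34 (adjusted p = 0.0718).

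Spry4 probe 1 read 858, 677, 961 and 779 in CT26-FL3 and 520, 615, 566 and 587 in CT26. The CT26-FL3 arrays varied more among themselves than the CT26 arrays and stayed above them. Spry4 rose 1.42-fold (log2 0.51, SE 0.11, limma adjusted p = 0.0042). This call was lost within replicates 1 and 2 alone (0.43, adjusted p = 0.1005). Spry4 probe 2 read 137, 135, 127 and 122.8 in CT26-FL3 and 104, 99.8, 115 and 118.8 in CT26. The lines were apart by a small margin, and the rise was 1.196-fold (log2 0.26, SE 0.07, limma adjusted p = 0.015). On probe 2 array set A, which holds replicates 1 and 2, gave 0.42, whereas array set B, which holds replicates 3 and 4, gave 0.09 and did not pass (adjusted p = 0.386). Blocking on replicate number ended this call as well, at an adjusted p of 0.053 by sample name and 0.0896 by title. The call on probe 2 was also lost with no filter on dim probes (adjusted p = 0.0596).

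Spry1, measured by a single probe, was the Sprouty gene that fell. Its scaled intensity was 1416, 1661, 1603 and 1569 in CT26-FL3, against 2291, 2576, 1959 and 2148 in CT26. All CT26-FL3 arrays were below all CT26 arrays. The mean was 1562 ± 104 in CT26-FL3 and 2243 ± 260 in CT26 (SD, n = 4 each). Spry1 fell by 0.52 on the log2 scale, to 0.699 of the CT26 level (SE 0.09, limma adjusted p = 0.0015). The difference was -0.66 in array set A and -0.37 in array set B. Its direction had to hold in both sets, because the lines did not overlap.

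**Figure D2:**
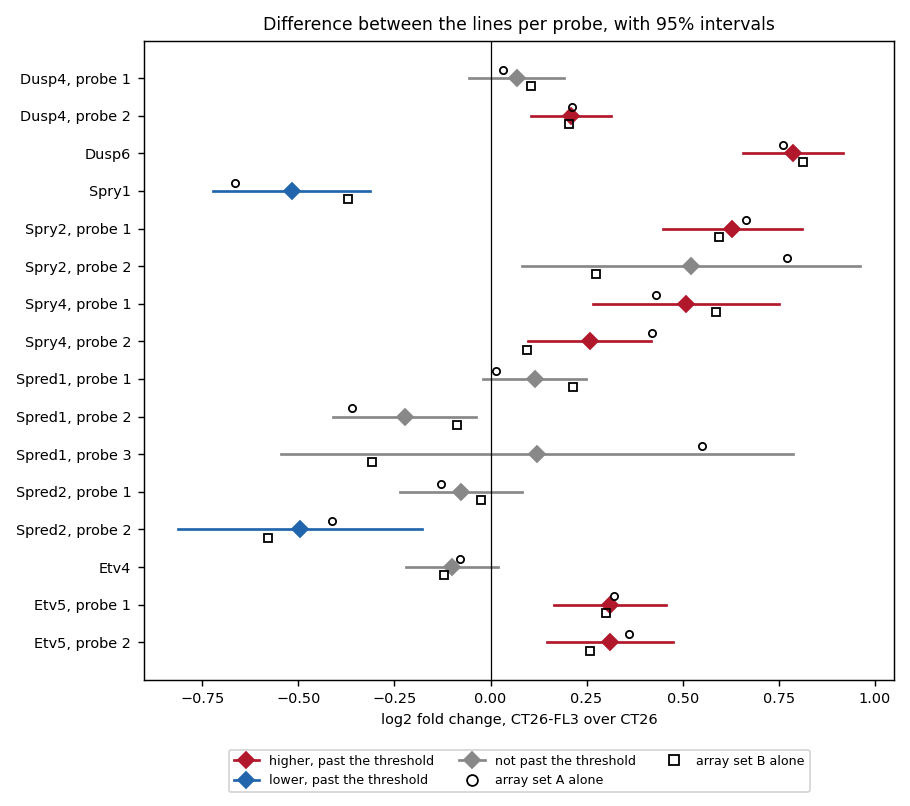
Log2 fold change of CT26-FL3 over CT26 for each of the 16 probes (diamonds) with its unadjusted 95% interval (line), coloured by whether the adjusted p passed. Open circles give the difference within replicates 1 and 2 (array set A) and open squares that within replicates 3 and 4 (array set B); Dusp6 has the largest rise at 0.79 and Spry1 the largest fall at -0.52.

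The Spred genes encode membrane-associated relatives of Sprouty that bring the RAS-inactivating protein neurofibromin to RAS. Neither gene passed on its brightest probe. Spred1 probe 1 read 2618, 2779, 3067 and 2868 in CT26-FL3 and 2660, 2686, 2498 and 2611 in CT26. CT26-FL3 replicate 1 lay among the CT26 arrays and the other replicates above them, with a difference of 0.11 (95% interval -0.02 to 0.25, limma adjusted p = 0.139). Probe 2 of Spred1 read 138, 125.1, 130 and 141 in CT26-FL3 and 157, 180, 141 and 147 in CT26. The lines were only just apart and the difference of -0.22 did not pass (limma adjusted p = 0.0503). Of the 8 fits that left out an array, 7 did not pass either. Over all 20 alternative fits of this probe 6 passed, with limma adjusted p from 0.0299 to 0.467, so the miss was narrow. Without CT26 replicate 3 the difference on probe 2 was -0.27 (adjusted p = 0.0299), and without CT26 replicate 2 it was -0.15 (adjusted p = 0.0861).

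Probe 3 of Spred1 read 177, 76.6, 72.6 and 61.3 in CT26-FL3 and 73.7, 85.5, 79.6 and 85.7 in CT26. CT26-FL3 replicate 1 was high, replicate 2 lay among the CT26 arrays and the others below them, and the difference of 0.12 had an SE of 0.29 (limma adjusted p = 0.763). Its sign differed between the array sets, 0.55 in array set A and -0.31 in array set B. The 3 probes of Spred1 thus span 0.34 on the log2 scale and give no direction for the gene. The median span was 0.16 over 5641 genes with more than 1 probe.

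Spred2 probe 1 read 1448, 1604, 1478 and 1604 in CT26-FL3 and 1544, 1800, 1504 and 1630 in CT26. The lines overlapped and the difference was -0.08 (95% interval -0.23 to 0.08, limma adjusted p = 0.396). Probe 2, annotated with a RefSeq mRNA, read 98.5, 81.5, 83.1 and 107 in CT26-FL3 and 144, 99.1, 140 and 141 in CT26. CT26 replicate 2 lay within the CT26-FL3 range and the other CT26 arrays above it. Spred2 fell by 0.50 on this probe (SE 0.14, limma adjusted p = 0.0172). The call was lost with no filter on dim probes (adjusted p = 0.0614) and with the block by title numbers (adjusted p = 0.0861). It was also lost within array set A alone (-0.41, adjusted p = 0.194). With a constant of 50 added to all intensities the difference on probe 2 was -0.31. The span between its probes was 0.42.

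Etv5, an ETS transcription factor of the PEA3 subfamily, rose on both of its probes by the same amount. Probe 1 read 504, 450, 495 and 515 in CT26-FL3 and 388, 374, 390 and 431 in CT26. Probe 2 read 389, 366, 378 and 350 in CT26-FL3 and 315, 274, 330 and 280 in CT26. On each probe every CT26-FL3 array was above every CT26 array. The rise was 1.24-fold on both, with log2 0.31 (SE 0.06, limma adjusted p = 0.00386) on probe 1 and 0.31 (SE 0.07, adjusted p = 0.00706) on probe 2. With the block by title numbers probe 1 had an adjusted p of 0.0521. Neither probe passed within array set A alone (adjusted p = 0.0674 and 0.0633 for probes 1 and 2). Within array set B alone neither passed either (adjusted p = 0.0717 and 0.164).

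Etv4, the closest relative of Etv5 in the group, did not pass. Its single probe read 5074, 4837, 5033 and 5234 in CT26-FL3 and 5424, 5053, 5718 and 5443 in CT26. The lines overlapped through CT26 replicate 2, the lowest of its line. The difference was -0.10 (95% interval -0.22 to 0.02, limma adjusted p = 0.15), an interval that does not hold the rise measured for Etv5; the difference between these genes was not tested.

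Which probe stood for a gene changed the call for some members. Across the 6 members with several probes the span between probes ran from 0.0009 to 0.42 on the log2 scale. Over 5641 genes with more than 1 probe the median span was 0.16 and the upper quartile 0.32. Of the 16 probes 12 were annotated with a RefSeq mRNA, and of these 6 were higher, 2 lower and 4 not past the threshold. The other 4, annotated with other sequences, were each the brightest of their gene and gave 1 call, that of Spry2. The shares of these probe types over all probes were not computed. All 9 called probes kept their direction within both array sets, and for 8 of them the lines did not overlap, so their direction had to hold there; the other is Spred2 probe 2. Lines that do not overlap were seen in 46% of all probes, 21.9% higher and 24.2% lower, and in 9 of the 16 member probes, of which Spred1 probe 2 did not pass the test.

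Other genes of the pathway were followed from lists, each gene by its brightest probe. In the list of other phosphatases and feedback genes 5 of 14 measured genes were higher, 3 lower and 6 not past the threshold, with a median of 0.04; over all genes 48.8% passed and the median was -0.01. Dusp2, an inducible nuclear phosphatase, rose by 0.89 (SE 0.08, limma adjusted p = 5.66e-05) over 3 CT26-FL3 arrays, since the spot of replicate 4 was marked as failed. Errfi1, an inhibitor of the EGF receptor, rose by 0.66 (SE 0.06). Dusp1, a phosphatase that prefers stress-activated kinases, fell by 0.88 (SE 0.06). Spred3, the remaining Spred gene, read 124.5, 140, 139 and 671 in CT26-FL3 and 64.7, 59.6, 62.7 and 66.7 in CT26. CT26-FL3 replicate 4 stood far above its line; the rise was 1.67 (SE 0.49, limma adjusted p = 0.0208) with it and 1.09 (SE 0.07, adjusted p = 1.72e-05) without it. Nf1, which encodes neurofibromin, differed by 0.01 (95% interval -0.19 to 0.21, adjusted p = 0.924).

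In the RAS to ERK cascade itself, of 22 measured genes 7 were higher, 2 lower and 13 not past the threshold, with a median of 0.08; these calls are 40.9% of the list, against 48.8% of all genes. The ERK-activated kinase gene Rps6ka3 rose by 0.76 (SE 0.06), and the genes of the RAS activators Sos1 and Sos2 rose by 0.52 (SE 0.07) and 0.46 (SE 0.06). Mras, a RAS relative, fell by 0.54 (SE 0.06). Map2k1, which encodes a kinase directly above ERK, rose by 0.29 (SE 0.07), and Braf, which encodes a RAF kinase, by 0.33 (SE 0.09) on the brightest of its 6 kept probes, of which 3 were higher and 0 lower; the mean of those probes gave 0.11 for Braf and did not pass (adjusted p = 0.0528). Nras fell by 0.14 (SE 0.05, limma adjusted p = 0.033), a call that held in 2 of the 8 fits that left out 1 array. All 3 of its kept probes passed as lower with all arrays. Hras differed by -0.23 and did not pass (limma adjusted p = 0.0565). Mapk3, which encodes an ERK kinase, differed by 0.02 (95% interval -0.11 to 0.14, adjusted p = 0.836) and did not pass.

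Other transcripts known to respond to ERK were higher in 12 of 17 measured genes, lower in 0 and not past the threshold in 5, with a median of 0.26, beside 23.8% of all genes higher. The list shares its reason for being chosen with the feedback regulators, and it was drawn up with earlier results of these data known. The immediate-early transcription factor gene Egr1 read 23049, 25365, 25109 and 25445 in CT26-FL3 and 11517, 11870, 12272 and 12094 in CT26. Its CT26-FL3 arrays all stood well above the CT26 arrays, a 2.07-fold rise (log2 1.05, SE 0.05, limma adjusted p = 7.71e-07). The EGF receptor ligand gene Hbegf rose by 0.98 (SE 0.05), Myc by 0.84 (SE 0.07) and Fos by 0.76 (SE 0.08).

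Receptors and ligands upstream of RAS moved in both directions, and 5 of them passed with at least a 2-fold change: 4 of 18 measured genes were higher, 9 lower and 5 not past the threshold, with a median of -0.11. Over all genes 23.8% were higher and 25% lower, and 4.8% of all probes passed with at least a 2-fold change. The receptor gene Egfr read 325, 329, 328 and 314 in CT26-FL3 and 53.5, 50.7, 44.7 and 46.3 in CT26. These lines lie far apart, with a rise of 2.73 (SE 0.06, limma adjusted p = 1.51e-08); 3 of its 4 kept probes were higher and the lowest gave 1.41. Its ligand gene Btc rose by 1.60 (SE 0.06), and Hgf, the ligand of the receptor Met, rose by 2.75 (SE 0.25), from a probe above the limit on 2 of the 4 CT26 arrays; with a constant of 50 added to all intensities the rise of Hgf was 1.16. Pdgfb was not above the limit in CT26-FL3 on any array and was at least 9.92-fold lower there. Among the other genes that fell were Pdgfa, a ligand gene of the same family, by 1.17 (SE 0.06, limma adjusted p = 1.69e-06), and Met, by 0.55 (SE 0.06, adjusted p = 0.000158); these 2 are named after their values were seen.

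**Figure D3:**
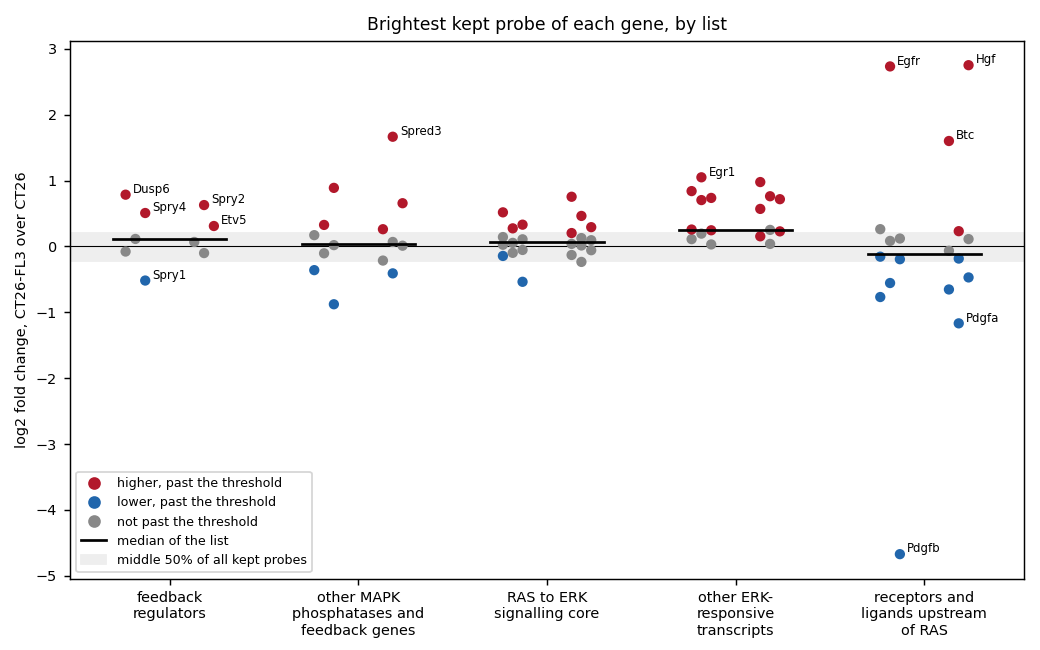
Log2 fold change of CT26-FL3 over CT26 on the brightest probe of each gene, for the 9 measured feedback regulators and the 4 lists of other pathway genes; red and blue points passed the threshold and black bars are list medians. The grey band holds the middle of all probes, from -0.22 to 0.20, and the feedback regulators reach from -0.52 to 0.79 around a median of 0.11; the point of Pdgfb is a fitted value, for which only a bound is measured.

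The genes whose values over the 8 arrays were most like those of Dusp6 were found among 12666 other genes, by the root mean square difference of log2 values after each gene was centred on its own mean. They were Ccl5, a chemokine gene (0.031), Zeb2, a transcription factor gene of the epithelial-mesenchymal transition (0.038), and Repin1 (0.048). Closest to Spry1 were Gpd1l (0.047), Megf9 (0.050) and Rsu1 (0.062). These are descriptions of 8 arrays that share their 2 lines, and the differences between the lines were 0.77 for Ccl5, 0.81 for Zeb2 and -0.50 for Gpd1l.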

How the data were processed

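Total RNA of 4 CT26-FL3 and 4 CT26 samples was hybridised to 1-colour (Cy3) Agilent arrays, and each sample's label names its line. The authors deposited 1 table of spot intensity per array, made with Agilent Feature Extraction per the submitters' processing notes, which give no version. Background was already subtracted in that intensity, as the values show: negative controls had medians of 2.23 to 7.43 beside local backgrounds of 21.1 to 24.4. The authors' deposited table of log2 values, centred per probe, served as an alternative; its columns had medians from -0.01 to 0.02 and, over bright probes, tracked the same arrays' centred intensities (r 0.991 to 0.997), which settled its scale and direction, while its normalization stays unknown.

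Control and failed spots were left out, log2 intensities of 1 probe were averaged, and the 75th percentile of each array was subtracted (808 to 1151 intensity units). Failed gene spots numbered 76 on CT26-FL3 replicate 4 and 3 to 12 on each other array, and 0 of them were of member probes. The detection limit of an array was 2.6 times the median standard deviation of its 153 negative controls. Of 41174 probes, those above it on at least 4 of 8 arrays were kept (23068); 52.8 to 58.2% were above it on an array, and the number of arrays limits the precision. The planned probe flags were replaced by this limit because the export does not hold them. Testing used limma 3.58.1 (R 4.3.3) without a block, two-sided, after a check on simulated data; fold changes are CT26-FL3 over CT26. Symbols came from the platform annotation, updated through gene IDs in a RefSeq table of GRCm38.p6 for 32524 probes.

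Members, lists and tests were chosen with earlier results of these data known. Named genes were all members; up to 4 called genes with the largest change per list; Nras, Hras, Braf, Map2k1, Mapk3, Nf1 and Egfr, with some further genes fixed by name not reported here; and the 3 genes most like the member with the largest rise and the member with the largest fall. By a number in the array names, which no header explains, array set A is replicates 1 and 2 of each line and array set B is replicates 3 and 4. Alternatives covered scaling, a constant of 50, filters, failed spots, each array left out, array sets, replicate blocks, the authors' table and the choice of probe.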

Additional observations from a re-analysis of the deposited data

Results flagged for a closer look

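Each line of 4 arrays was screened for 1 array far from its 3 neighbours, by the gap to the nearest of the others over the range of the line, with a critical value of 0.829; chance passes about 1 in 20 groups, and 5 of 81 did. Spred2 probe 2 in CT26 had replicate 2 low, at 99.1 scaled intensity against 140 to 144 on the others (ratio 0.936). Spred3 in CT26-FL3 had replicate 4 high, at 671 against 124.5 to 140 (ratio 0.928). Egr1 in CT26-FL3 had replicate 1 low, at 23049 against 25109 to 25445 (ratio 0.866). Hras in CT26-FL3 had replicate 1 low, at 7049 against 8615 to 8935 (ratio 0.846). Mapk3 in CT26-FL3 had replicate 3 high, at 18838 against 16752 to 16886 (ratio 0.932).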

How the results depend on the processing

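All 9 called member probes kept their direction in every alternative in which they were measured, and all 9 passed in each of the 8 fits that left out 1 array (7 to 8 member probes higher and 2 to 3 lower, and 10056 to 10696 of all probes called). For the 8 called probes whose lines did not overlap, the direction had to hold in fits on fewer of the same arrays. All 9 called member probes also passed with median subtraction, quantile normalization, the constant of 50, the stricter filter and failed spots kept. So did they with the array set as a block and the authors' table. In these fits 0 to 2 member probes without a call in the main test passed as well. With quantile normalization Spred1 probe 1 passed as higher (0.15, limma adjusted p = 0.0472) and probe 2 as lower (-0.24, adjusted p = 0.0363). The authors' table likewise gave opposite calls for these probes (limma adjusted p = 0.0488 and 0.0329). Within array set A, fits of 2 arrays against 2 gave 3 member probes higher, 1 lower and 5756 probes called in all, against 7, 2 and 11131 with all arrays; within array set B they gave 3 higher, 2 lower and 5728 in all. These smaller fits have fewer arrays by construction. Without a filter on dim probes 1 member probe was lower and 6 were higher, with 8569 of 41174 probes called in all. The cause was not tested. With the brightest probe of each gene alone 4 were higher and 1 lower, out of 9, and 7472 of 15097 genes were called in all. The mean of each gene's kept probes gave 5 higher and 2 lower, with 7556 of 15097 genes called in all. With that mean Dusp4 (0.14, adjusted p = 0.0235) and Spred2 (-0.29, adjusted p = 0.00642) were also past the threshold. The replicate block by title numbers, which can use 6 of the arrays, gave 4 higher and 1 lower, with 8028 of 23068 probes called in all. The block by sample-name numbers gave 6 higher and 2 lower, with 10305 probes called in all. The labels do not say that a number pairs samples. Same-numbered arrays deviated from their line means at r from -0.02 to 0.13 by sample-name numbers and -0.20 to 0.15 by title numbers. They were not each highest with their own number. Between the lines, arrays of the same array set gave r from -0.02 to 0.18, and arrays of different sets from -0.23 to 0.11. These values do not settle whether samples were paired. Among the member probes the largest standard errors were 0.29 for Spred1 probe 3, 0.19 for Spry2 probe 2 and 0.14 for Spred2 probe 2, and 4 arrays per line limit the precision of all of them.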
